A study of Mus musculus with 5 samples.

Results

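The uterine epithelium has to pass through a short receptive state before an embryo can attach, and a small set of transcription factors is known for its role in that state. Here 9 of them are described in whole-uterus RNA: the homeobox factors Msx1, Msx2, Dlx5, Dlx6 and Emx2, the Krüppel-like zinc finger factors Klf4 and Klf5, the forkhead factor Foxo1 and the basic leucine zipper factor Cebpb. They were taken by gene name from the 28666 genes of the deposited count table, for their known part in uterine receptivity or in the epithelium, and all 9 were present with counts in every library. The uteri were those of 6- to 8-week-old ICR females mated to C57BL/6 males after vasectomy, so that the ejaculate carried seminal plasma (SP) but no sperm. The males were aged 12 to 14 weeks in the young-SP group (3 libraries, replicates 1, 2 and 4) and 12 to 18 months in the aged-SP group (2 libraries, replicates 1 and 4), and the question was what the age of the male changed in the uterus. All females were thus pseudopregnant and exposed to SP, and uteri without SP were not analysed here. The sample labels place collection 3.5 days after caging, and the methods of the study place it at 3.0 dpc, before the window in which embryos attach. Neither source says whether a library is 1 uterus or a pool, so the p-values given here measure the spread between these libraries.

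During early pregnancy in mice, ovarian progesterone and a brief estrogen signal stop the division of luminal epithelial cells and prepare them for attachment. Msx1 is switched on in luminal and glandular epithelium for a short time just before attachment and then switched off, and uteri that lack Msx1 and Msx2 fail to become receptive. Dlx5 and Dlx6 are neighbouring genes that act together in epithelium and in gland formation, and Emx2 is needed to build the female reproductive tract. Klf5 is needed in the uterine epithelium for implantation, and Klf4 is a factor of epithelial differentiation. Foxo1 works with the progesterone receptor in luminal epithelium and in the stroma, and Cebpb responds to both steroid hormones and is needed for the decidual response. Several of these factors are also made by stromal or immune cells, so their level in whole-uterus RNA is not a level in epithelium alone.

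The genes lie on 8 chromosomes (GRCm38). Msx1 spans chr5:37820485-37824583, Msx2 chr13:53466884-53473074, Emx2 chr19:59458372-59465357, Klf4 chr4:55527143-55532466, Klf5 chr14:99298691-99315036, Foxo1 chr3:52268336-52353221 and Cebpb chr2:167688915-167690418. Dlx6 (chr6:6863334-6868568) and Dlx5 (chr6:6877805-6882085) face each other on opposite strands with 9236 bases between them. The 250 bases before the annotated start were available for 6 of the 9 genes (RefSeq, GRCm38.p6). These RefSeq starts can differ from the gene positions above, and the windows of Msx2 and Emx2 lie inside the positions listed for these genes. The windows of Msx1, Klf4 and Cebpb, the members with the lowest p-values in the comparison of the groups, are shown 5′ to 3′ on the strand of the gene. Capitals mark GGGCGG or its reverse complement CCGCCC, a GC box bound by Sp and Krüppel-like factors, and in Cebpb also GGGTGG, the reverse complement of the Krüppel-like CCACCC box.
Msx1 (chr5:37824586-37824835, minus strand): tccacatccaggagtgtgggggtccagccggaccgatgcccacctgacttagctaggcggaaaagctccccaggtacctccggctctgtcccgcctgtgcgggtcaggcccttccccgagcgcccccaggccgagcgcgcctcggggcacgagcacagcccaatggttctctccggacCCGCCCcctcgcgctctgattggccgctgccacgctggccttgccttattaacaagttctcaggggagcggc
Klf4 (chr4:55532476-55532725, minus strand): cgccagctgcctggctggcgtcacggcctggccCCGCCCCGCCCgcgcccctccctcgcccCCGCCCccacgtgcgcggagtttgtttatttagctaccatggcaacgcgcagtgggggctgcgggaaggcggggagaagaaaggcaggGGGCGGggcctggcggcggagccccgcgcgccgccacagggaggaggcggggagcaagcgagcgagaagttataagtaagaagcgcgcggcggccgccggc
Cebpb (chr2:167688665-167688914, plus strand): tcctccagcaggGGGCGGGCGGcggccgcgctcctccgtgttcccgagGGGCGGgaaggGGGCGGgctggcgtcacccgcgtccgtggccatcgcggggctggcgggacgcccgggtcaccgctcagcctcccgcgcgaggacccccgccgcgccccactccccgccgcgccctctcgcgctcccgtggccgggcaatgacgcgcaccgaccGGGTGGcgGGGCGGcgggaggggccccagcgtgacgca
On either strand, and counting overlapping matches, GGGCGG occurred 1 time in the window of Msx1, 4 times in Klf4 and 5 times in Cebpb, and 1 time in Msx2, 2 times in Emx2 and 2 times in Foxo1. It was thus found in 6 of 6 windows, against 32.7% of the 32851 promoter windows of the table. These windows were also rich in GC, with 68% in Msx1, 74% in Klf4 and 81.6% in Cebpb against a median of 52.4% over all windows. CCACCC was found in 1 of 6 windows, that of Cebpb, against 28.1% of all windows. On both strands, 5 other motifs had 0 matches in the 6 windows: TAATTG (a homeobox core, in 7.17% of all windows), GTAAACA (FoxO, 3.17%), TTGCGCA (C/EBP, 1.69%), AGAACA (a progesterone receptor motif, 16.1%) and TGACGTC (cyclic AMP response element, 2.78%).

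Total counts lay between 15071914 and 16728601 per library, and 17013 genes had enough counts to be tested. On the 500 most variable genes, young-SP replicate 1 stood apart from the other young-SP libraries on both principal components (66.2% and 15.7% of the variance), so the main counts are also given without it. Uterine origin was clear in every library from Hoxa10 (436.7 to 518.3 CPM, counts per library size after TMM scaling) and from the myometrial gene Acta2 (2471 to 4263 CPM). The 5 markers of vagina and cervix summed to between 1.09 and 2 CPM, with Krt13 at no more than 0.562 CPM. The oviduct list summed to between 176.6 and 364 CPM. Its most abundant gene by FPKM was Tubb4b, which most cells make, and its secretory marker Ovgp1, chosen after its values were seen, stood at 50.2 and 119.3 CPM in the aged-SP libraries and at 65.8, 35 and 232.3 CPM in the young-SP libraries. The ovary list summed to between 21.5 and 70.8 CPM, led by Star.

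None of the 9 factors passed the test between the groups. In the quasi-likelihood test of edgeR, 0 of 9 met both thresholds (Benjamini-Hochberg adjusted p under 0.05 over all tested genes, log2 fold change over 1 in either direction), against 0.147% of all tested genes (25 of 17013). Their adjusted p-values ran from 0.149 (Cebpb) to 0.932 (Msx2). At an unadjusted p under 0.05 there were 3 of 9, namely Msx1, Klf4 and Cebpb, against 19% of all tested genes. DESeq2's Wald test, the tool of the study, called 1 of 9, Cebpb (adjusted p = 0.0275), against 3.6% of the 17536 genes it tested, and limma-voom called 0 of 9, against 0.159%. The libraries of the groups did not overlap for 4 of 9 genes, against 38.8% of all tested genes: Klf4, Foxo1 and Cebpb were higher in both aged-SP libraries (19.5% of genes) and Msx1 was lower (19.3%). Fold changes, given as the aged-SP over the young-SP group, were above 1 for 7 factors and below 1 for 2, and their median was 0.44 on the log2 scale against 0.007 over all tested genes. Without young-SP replicate 1, 0 of 9 were called, 4 had an unadjusted p under 0.05 (22.3% of all tested genes) and 8 did not overlap (55.4%).

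**Figure D1:**
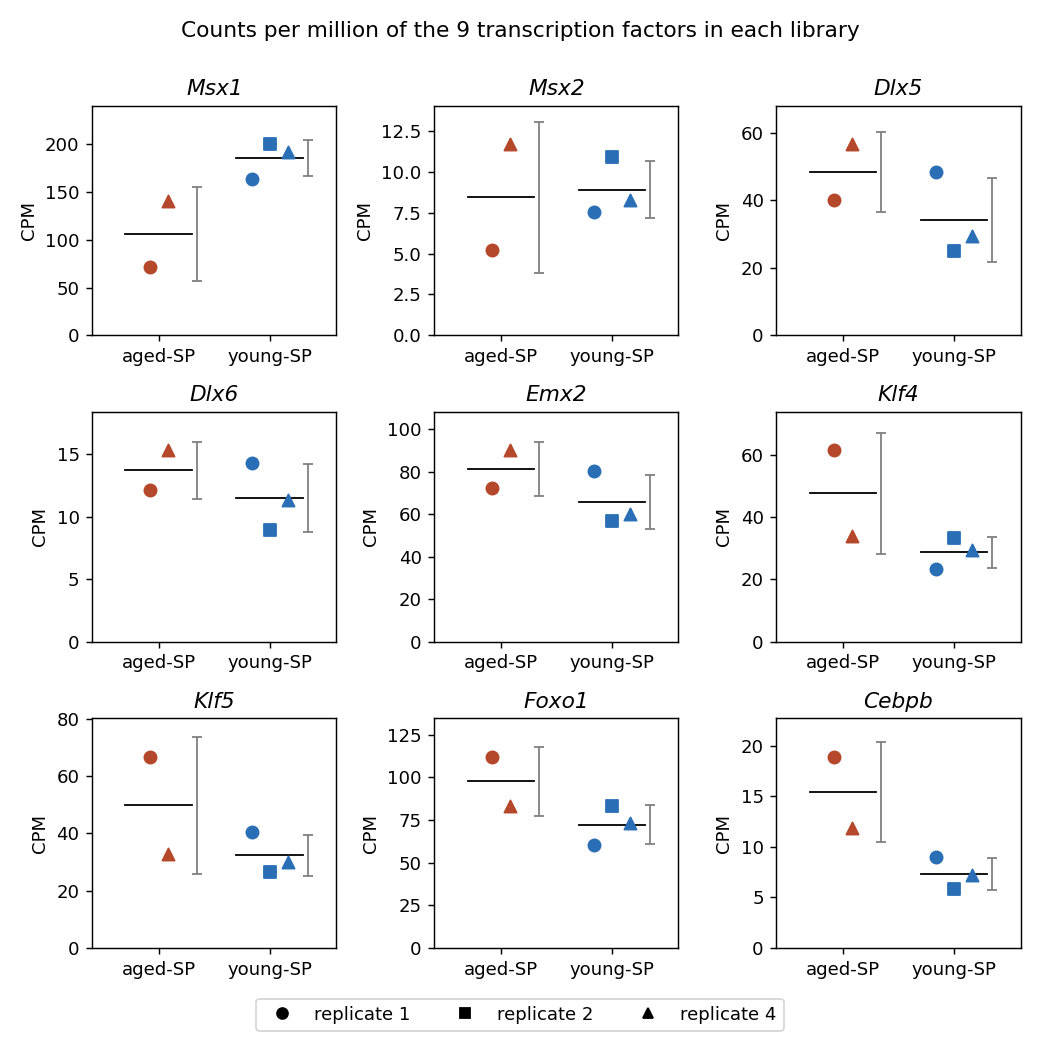
CPM (y axis, starting at 0) of the 9 factors in the 2 aged-SP (red) and 3 young-SP (blue) libraries, with the group mean (line) and SD (grey bar); the marker shape gives the replicate number. Msx1 lies at 71.3 and 140.8 CPM in the aged-SP and at 164 to 200.3 CPM in the young-SP libraries, while Cebpb lies at 11.9 and 18.9 against 5.79 to 9 CPM.

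Msx1, the factor most tied to the receptive epithelium, was the member with the lowest levels in the aged-SP group relative to the young-SP group. Its count was 1181 and 2204 in aged-SP replicates 1 and 4 and 2625, 3392 and 2884 in young-SP replicates 1, 2 and 4. On the CPM scale these were 71.3 and 140.8 against 164, 200.3 and 192.3. Both aged-SP libraries lay under all 3 young-SP libraries, and replicate 1 lay far under replicate 4 of its own group. The mean was 106 ± 49.1 CPM in the aged-SP group (SD, n = 2) and 185.5 ± 19.1 CPM in the young-SP group (SD, n = 3), where the fitted level was 1.75-fold higher. The log2 fold change was -0.81 with an SE of 0.30 and a 95% interval of -1.55 to -0.07, and it missed the threshold (edgeR, unadjusted p = 0.0373, adjusted p = 0.237). Without aged-SP replicate 1 it was -0.40, and without aged-SP replicate 4 it was -1.38. In whole-tissue RNA, fewer epithelial cells and less Msx1 RNA per cell cannot be told apart.

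Its paralog Msx2 was the least abundant of the 9 and did not follow Msx1 across the groups. Counts of Msx2 were 86 and 183 in the aged-SP group and 121, 184 and 124 in the young-SP group, or 5.19 and 11.7 against 7.56, 10.9 and 8.27 CPM. The aged-SP libraries held both the lowest and the highest value, so the groups overlapped completely. The log2 fold change was -0.08 (95% interval -1.03 to 0.88, edgeR adjusted p = 0.932), and it turned to 0.39 without aged-SP replicate 1 and to 0.09 without young-SP replicate 2. On the FPKM scale, which takes out gene length, Msx1 exceeded Msx2 in every library, by 14.5- and 12.8-fold in the aged-SP libraries and by 23-, 19.5- and 24.6-fold in the young-SP libraries. Those ratios did not overlap between the groups (13.6 ± 1.26, n = 2, and 22.4 ± 2.61, n = 3, SD). With 2 libraries against 3, the smallest p that a two-sided exact permutation test can give is 0.2, so they were not tested. Both genes had their lowest level in aged-SP replicate 1.

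Dlx5, Dlx6 and Emx2 shared a pattern that cut across the groups. Dlx5 stood at 40.1 and 56.7 CPM in the aged-SP libraries and at 48.4, 25.1 and 29.3 CPM in the young-SP libraries (665, 888, 775, 425 and 440 counts). Dlx6 stood at 12.1 and 15.3 against 14.3, 8.91 and 11.3 CPM (201, 239, 229, 151 and 170 counts). Emx2 stood at 72.2 and 90.1 against 80.4, 56.9 and 59.9 CPM (1196, 1410, 1287, 963 and 898 counts). All 3 genes were thus highest in aged-SP replicate 4, next in young-SP replicate 1 and lowest in young-SP replicate 2, and the groups overlapped for each. Their log2 fold changes were 0.50 for Dlx5 (SE 0.32, 95% interval -0.29 to 1.29), 0.25 for Dlx6 (SE 0.24, -0.36 to 0.86) and 0.30 for Emx2 (SE 0.19, -0.17 to 0.78). None passed the test (edgeR adjusted p = 0.442, 0.618 and 0.432). Leaving out young-SP replicate 1 raised that of Dlx5 to 0.82 (edgeR adjusted p = 0.0967, the lowest of its 15 alternatives, which reached 1).

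The neighbours Dlx5 and Dlx6 kept a similar proportion in every library. On the FPKM scale Dlx5 was 3.47- and 3.9-fold above Dlx6 in the aged-SP libraries and 3.55-, 2.95- and 2.72-fold above it in the young-SP libraries. Dlx6os1, a long RNA read from the opposite strand of the Dlx6 locus, varied far more, with 9.54 and 21.5 against 31, 3.19 and 5 CPM. It was high in young-SP replicate 1 and low in the other young-SP libraries, so the groups overlapped and the fold change had an SE of 1.01 on the log2 scale (edgeR adjusted p = 0.916). Emx2os, from the strand opposite Emx2, stood at 13.3 and 20.2 against 18.1, 18.6 and 10.6 CPM and overlapped as well (adjusted p = 0.907). Whether the counting used strand is not given in the sources used here, and 8.79% of the exon bases of Emx2 and 4.38% of those of Dlx6 are shared with a gene on the opposite strand. Of the other homeobox paralogs, Msx3, Dlx1, Dlx4 and Emx1 had at most 0.192 CPM in any library and were not tested.

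The Krüppel-like pair was highest in aged-SP replicate 1. Counts of Klf4 were 1019 and 530 in the aged-SP group and 376, 566 and 442 in the young-SP group, or 61.5 and 33.9 against 23.5, 33.4 and 29.5 CPM. Both aged-SP values were above the young-SP values, but the second by only a small margin, and the groups overlapped when libraries were scaled to their total alone (33.8 in aged-SP replicate 4 and 34.2 in young-SP replicate 2). The log2 fold change was 0.73 with an SE of 0.28 and a 95% interval of 0.02 to 1.44 (edgeR, unadjusted p = 0.0457, adjusted p = 0.255). It was 0.23 without aged-SP replicate 1 and 1.10 without aged-SP replicate 4, so that its size rests largely on aged-SP replicate 1.

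Counts of Klf5 were 1107 and 513 in the aged-SP group against 648, 451 and 450 in the young-SP group, or 66.8 and 32.8 against 40.5, 26.6 and 30 CPM. Aged-SP replicate 1 stood above all others, and aged-SP replicate 4 lay inside the range of the young-SP group. The log2 fold change was 0.62 (SE 0.34, 95% interval -0.22 to 1.46, edgeR adjusted p = 0.377) and came to 0.02 without aged-SP replicate 1. On the FPKM scale Klf4 exceeded Klf5 by between 1.57- and 2.14-fold in 4 libraries and was level with it in young-SP replicate 1, with a ratio of 0.99.

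Foxo1 stood at 112.1 and 83.5 CPM in the aged-SP libraries and at 60.5, 83 and 73.3 CPM in the young-SP libraries (1857, 1308, 969, 1406 and 1100 counts). As with Klf4, aged-SP replicate 4 exceeded young-SP replicate 2 by a narrow margin, and scaling to the library total alone made the groups overlap (83.4 and 84.9). The mean was 97.8 ± 20.2 CPM in the aged-SP group (SD, n = 2) and 72.3 ± 11.3 CPM in the young-SP group (SD, n = 3), and the log2 fold change was 0.44 (SE 0.19, 95% interval -0.03 to 0.90, edgeR adjusted p = 0.287). Without aged-SP replicate 1 it was 0.21. Foxo1 shares 7.78% of its exon bases with Gm20402 on the opposite strand, and the part of shared reads in its levels was not tested.

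Cebpb had the largest fold change of the 9. Its counts were 313 and 186 in the aged-SP libraries and 144, 98 and 108 in the young-SP libraries. These came to 18.9 and 11.9 against 9, 5.79 and 7.2 CPM. Both aged-SP libraries lay above all 3 young-SP libraries, also when libraries were scaled to their total alone and when Cebpb was set against the summed epithelial markers. The mean was 15.4 ± 4.96 CPM in the aged-SP group (SD, n = 2) and 7.33 ± 1.61 CPM in the young-SP group (SD, n = 3), with a fitted fold change of 2.1 (log2 fold change 1.07, SE 0.29, 95% interval 0.36 to 1.78). It missed the threshold in edgeR's quasi-likelihood test (unadjusted p = 0.011, adjusted p = 0.149) and in limma-voom (adjusted p = 0.162), and passed it in DESeq2 (adjusted p = 0.0275). Leaving out aged-SP replicate 1 gave 0.70 and leaving out aged-SP replicate 4 gave 1.37, with adjusted p-values of 0.463 and 0.2 in edgeR. Over all 15 alternatives the adjusted p of Cebpb ranged from 0.0275 to 0.463. Cebpb shares 20.7% of its exon bases with Tmem189 on the opposite strand. Tmem189 itself overlapped between the groups, with 20.8 and 25.3 against 25.3, 20.3 and 19.4 CPM, and the part of shared reads in the levels of Cebpb was not tested.

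**Figure D2:**
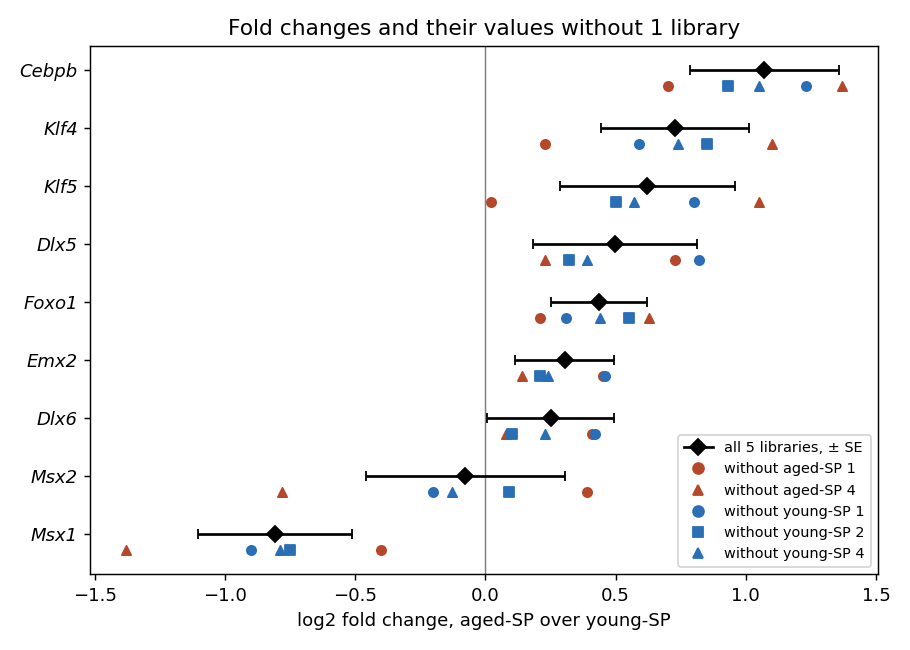
Log2 fold change (x axis, aged-SP over young-SP) of the 9 factors with all 5 libraries (black diamonds, bars are ± 1 SE from edgeR) and with each library left out (red and blue markers). Cebpb stays at or above 0.70 and Msx1 at or under -0.40 in every fit, Klf5 comes to 0.02 without aged-SP replicate 1, and Msx2 lies on both sides of 0.

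Per gene length, Msx1 was the most abundant of the 9. Its FPKM ranged from 22.8 to 66.1 over the 5 libraries with a mean of 49.7, followed by Emx2 (mean 23.9, range 19.4 to 30) and Dlx5 (17.6, 11.3 to 25). Klf4 (11.9, 7.65 to 20), Foxo1 (9.52, 6.94 to 12.8), Klf5 (7.54, 5.24 to 12.7), Cebpb (6.99, 3.93 to 12.4), Dlx6 (5.21, 3.84 to 6.42) and Msx2 (2.66, 1.57 to 3.56) came after them. Neighbours kept this order in 5 of 5 libraries for Emx2 over Dlx5, Klf4 over Foxo1 and Dlx6 over Msx2, and in 4 of 5 for the other 5 pairs. The range of each gene overlapped that of the next, with the exception of Dlx6 and Msx2, whose ranges did not meet. Such ranges do not use the pairing of the genes within a library. In aged-SP replicate 1 alone Msx1 (22.8 FPKM) lay under Emx2 (23.8 FPKM) and came close to Klf4 (20 FPKM). The ratio of Msx1 to Klf4 was 1.14 there, 4.09 in aged-SP replicate 4 and between 5.9 and 6.87 in the young-SP libraries. Msx1 over Cebpb went from 1.83 and 5.75 in the aged-SP libraries to 8.85, 16.8 and 13 in the young-SP libraries.

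Over the 5 libraries the profiles of the 9 factors are described here in 3 sets, which is a description of these libraries only. The sets were not derived from the distances, and the distances did not separate them fully. Each gene was set against its own mean on the log2 scale, and 2 genes were compared by the root mean square (RMS) difference of these values. Dlx6 and Emx2 were the closest pair (RMS 0.0892), with Dlx5 at 0.19 from each. Klf4 was closest to Foxo1 (0.184), and Klf5 to Cebpb (0.27), and these 4 genes were all highest in aged-SP replicate 1, by 0.47 (Foxo1) to 0.96 (Cebpb) above their means. Msx1 and Msx2 were lowest in that library, at 1.02 and 0.68 under their means (-1.02 and -0.68). Among all tested genes, 22.8% were highest and 23.3% lowest in aged-SP replicate 1. Young-SP replicate 2 held the lowest value of 5 of the 9 factors, against 19.7% of all tested genes. Msx1 and Msx2 lay at 0.369 from each other. Foxo1 lay closer to Emx2 (0.395) than to Cebpb (0.461). The most different pair was Msx1 and Cebpb (1.12).

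**Figure D3:**
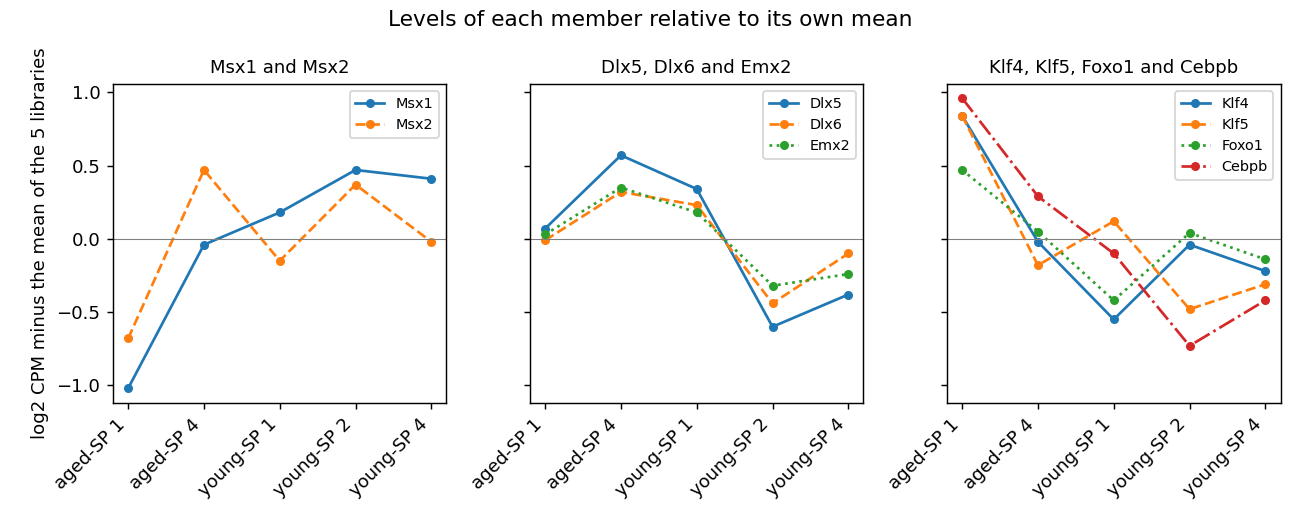
Log2 CPM of each factor minus its mean over the 5 libraries (y axis) in each library (x axis); lines join the values of a gene and do not stand for an order of libraries. Klf4, Klf5, Foxo1 and Cebpb peak in aged-SP replicate 1 at 0.47 to 0.96, where Msx1 and Msx2 are lowest, and Dlx5, Dlx6 and Emx2 lie above their means in aged-SP replicate 4 and young-SP replicate 1.

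For each factor the gene with the most similar profile was sought among 11805 tested genes with a mean of at least 5 CPM, over the 5 libraries. They were Cacng4 for Msx1 (RMS 0.0814), Aif1l for Msx2 (0.125), Lpxn for Dlx5 (0.0562), Als2cl for Dlx6 (0.0499) and Pam, an enzyme that amidates peptide hormones, for Emx2 (0.0476). For the others they were Ngef for Klf4 (0.0876), Birc3, an inhibitor of apoptosis, for Klf5 (0.0195), Cep85l for Foxo1 (0.0602) and Tlr4, the lipopolysaccharide receptor, for Cebpb (0.0785). Birc3, the closest of all, stood at 62.7 and 31.3 CPM in the aged-SP libraries and at 38, 25.9 and 28.7 CPM in the young-SP libraries, beside 66.8, 32.8, 40.5, 26.6 and 30 CPM for Klf5. Tlr4 stood at 89.8 and 65.2 against 48.8, 30.6 and 40.1 CPM. Likeness over 5 libraries is a description and was not tested.

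The paralogs of these factors were mostly higher in the aged-SP group, although 0 of the 19 tested passed the threshold (edgeR adjusted p from 0.0734 to 0.85). At an unadjusted p under 0.05, 10 were higher, against 9.62% of all tested genes, and 1 was lower, against 9.36%. The groups did not overlap for 12 higher and 1 lower paralog, against 19.5% and 19.3% of all tested genes, and the median log2 fold change was 0.45. Scaling to the summed epithelial markers in place of TMM left 3 higher paralogs and 1 lower at an unadjusted p under 0.05, and turned the small values of Klf15 and Klf16 from 0.09 and 0.06 to -0.02 and -0.04.

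Among the Krüppel-like genes, 12 were tested beside Klf4 and Klf5, and Klf3, Klf6, Klf7, Klf9, Klf10 and Klf11 were higher and Klf8 lower at an unadjusted p under 0.05. Klf11 stood at 38.9 and 52.1 CPM in the aged-SP libraries and at 19.1, 23.4 and 23.3 CPM in the young-SP libraries (log2 fold change 1.05, SE 0.17, edgeR adjusted p = 0.0766), and it was the 1 paralog that DESeq2 called (adjusted p = 9.66e-05). Klf10, an early gene of TGF-beta signalling, stood at 70.3 and 87.6 against 41.5, 37.5 and 44.8 CPM (0.94, SE 0.13, adjusted p = 0.0734). These 2 genes were highest in aged-SP replicate 4, unlike Klf4 and Klf5. Klf9, a partner of the progesterone receptor and the most abundant of the family with a mean of 48.3 FPKM, stood at 208.4 and 184 against 120.3, 137.4 and 138.9 CPM (0.57, SE 0.11, adjusted p = 0.0957). Klf3 (0.47), Klf6 (0.42) and Klf7 (0.51) had smaller log2 fold changes, with adjusted p-values of 0.113, 0.24 and 0.174, and Klf8 had -0.71 (adjusted p = 0.215) at no more than 7.8 CPM.

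In the other families, 6 of the 7 tested paralogs had a fold change above 1, the exception being Foxo6 (-0.18). Foxo3 (125.8 and 149.5 against 103.1, 99.5 and 97.1 CPM) had a log2 fold change of 0.46 (SE 0.10, edgeR adjusted p = 0.118). Foxo4, the most abundant FoxO gene per length with a mean of 17.1 FPKM, had 0.43 (SE 0.11, adjusted p = 0.135). Both stood beside the 0.44 of Foxo1 with a smaller spread between libraries. Cebpa (41.4 and 40.4 against 30, 29.6 and 28.3 CPM) had 0.48 (SE 0.09, adjusted p = 0.0964) and Cebpg had 0.45 (SE 0.12, adjusted p = 0.156). Cebpd, the most abundant of its family with a mean of 23.5 FPKM and known as an acute phase gene, was like Cebpb highest in aged-SP replicate 1 and lowest in young-SP replicate 2, with 206.7 and 57.3 against 89.6, 34.2 and 54.7 CPM. Its groups overlapped, because aged-SP replicate 4 lay under young-SP replicate 1 (1.15, SE 0.62, adjusted p = 0.375).

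**Figure D4:**
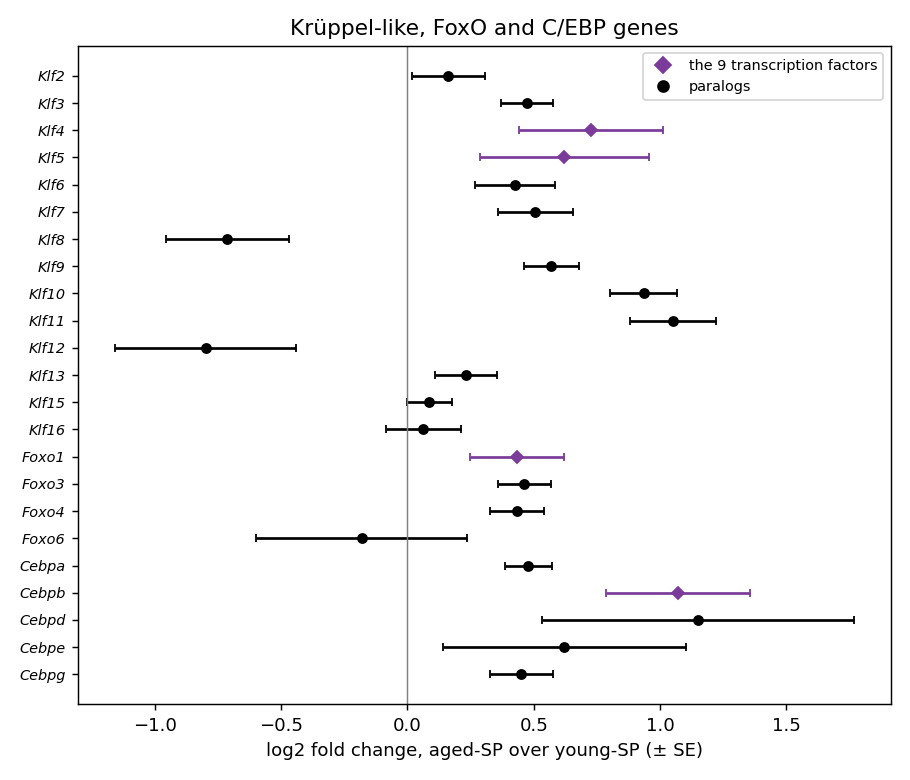
Log2 fold change (x axis, aged-SP over young-SP, bars are ± 1 SE from edgeR) of the tested Krüppel-like, FoxO and C/EBP genes, with the 4 of the 9 factors that belong to these families in purple. Klf10 and Klf11 stand at 0.94 and 1.05 with small errors, while Klf8 and Klf12 lie under 0 at -0.71 and -0.80.

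The wider receptivity pathway held 24 tested genes, of which 0 passed the threshold by edgeR (adjusted p from 0.076 to 0.976). At an unadjusted p under 0.05, 9 were lower in the aged-SP group and 4 higher, against 9.36% and 9.62% of all tested genes, and DESeq2 called 4, all lower (Ihh, Ptch1, Gli1 and Areg), against 1.92% of the genes it tested. Ihh is a progesterone-induced hedgehog ligand of the epithelium that acts on the stroma. It stood at 7.97 and 11.5 CPM in the aged-SP libraries and at 20.7, 45.3 and 34.5 CPM in the young-SP libraries (log2 fold change -1.78, SE 0.38, edgeR adjusted p = 0.109). Its receptor and target Ptch1 stood at 76.6 and 58.7 against 90.8, 192.6 and 182.7 CPM (-1.20, adjusted p = 0.176). Its stromal effector Gli1 stood at 33.4 and 33.7 against 73.8, 133.4 and 122.5 CPM (-1.71, adjusted p = 0.076). In all 3 genes young-SP replicate 1 lay between the aged-SP libraries and the other young-SP libraries. Msx1 lay in the same direction, with the same young-SP library lowest of its group.

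Sox17 and Gata2, which act in the epithelium, had an unadjusted p under 0.05 and did not pass after adjustment. Sox17 stood at 99.4 and 137.3 against 205.3, 235.9 and 252.6 CPM (-0.97, SE 0.18, edgeR adjusted p = 0.0877) and Gata2 at 117.4 and 140.6 against 181.4, 238.5 and 227 CPM (-0.74, SE 0.16, adjusted p = 0.11). Egfr, a growth factor receptor, had -0.80 (adjusted p = 0.114). Areg, a progesterone-induced ligand, had counts of 1 and 0 in the aged-SP group and of 3, 28 and 46 in the young-SP group. It was 1 of the 9 lower genes (edgeR adjusted p = 0.185) and 1 of the 4 called by DESeq2 (adjusted p = 0.0312), but its fitted fold change is not given, since it depends on the prior count at so few reads. The stromal factors Hand2 and Hoxa11 had -0.28 each (adjusted p = 0.23 and 0.17). On the other side stood the estrogen receptor gene Esr1 (0.28, adjusted p = 0.229), the LIF receptor gene Lifr (0.87, adjusted p = 0.178) and Stat3, which carries the LIF signal (0.47, adjusted p = 0.2). Pgr, the progesterone receptor gene, stood at 199.8 and 203.3 against 287.6, 247.5 and 221.7 CPM (-0.32, adjusted p = 0.27).

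Of the genes reported to lie downstream of the 9 factors in uterine knockouts, 12 were tested, and 6 had a fold change above 1 and 6 below 1, with a median log2 fold change of 0.06. By edgeR and by DESeq2 0 were called, and at an unadjusted p under 0.05 (edgeR) there were 0 higher and 1 lower. Their groups did not overlap for 1 higher and 2 lower genes, against 19.5% and 19.3% of all tested genes, and their log2 fold changes ran from -0.72 (Wnt5a) to 1.78 (Fgf9, adjusted p = 0.283). The lower one was Wnt5a, which rises in uteri without Msx genes, at 108 and 123.3 against 172.3, 177.2 and 221.5 CPM (-0.72, SE 0.15, edgeR adjusted p = 0.105). Msx1 and Wnt5a were thus both lower in the aged-SP libraries. Ptgs2, the prostaglandin synthase gene placed downstream of Klf5, stood at 29.1 and 20.4 against 16.9, 2.77 and 4.67 CPM and did not overlap, with an adjusted p of 0.314. Fgf9 stood at 15 CPM in aged-SP replicate 1 and at 2.3 CPM in aged-SP replicate 4, against 3.37, 1.89 and 2.27 CPM. Its groups overlapped, and its fold change rests on 1 library. Ptgs2 and Fgf9 were chosen for the text after their values were seen.

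Some epithelial markers were high in the same libraries as Dlx5, Dlx6 and Emx2. The 8 markers of uterine epithelium, led by Krt8, were present in every library and summed to 1273 and 1316 CPM in the aged-SP libraries and to 1686, 965 and 1156 CPM in the young-SP libraries. Of these 8, 1 was higher (Krt18) and 1 lower (Cldn3) at an unadjusted p under 0.05, and edgeR called 0. Cldn3 (log2 fold change -1.03) was called lower by DESeq2 and by limma-voom (adjusted p = 8.01e-12 and 0.0485, against 0.0552 in edgeR). The 5 luminal markers, led by Calb1, summed to 265.4 and 294.8 CPM against 752, 479 and 671.9 CPM, with 0 of 5 called by edgeR. Calb1 (-2.60) and Lpar3 (-2.43), both hormone-regulated in the luminal epithelium, had an edgeR adjusted p of 0.0598 and 0.0795. DESeq2 called both lower (adjusted p = 1.44e-17 and 1.05e-07), and limma-voom called Calb1 (adjusted p = 0.0488). The 6 gland markers, led by the secreted protease gene Prss29, summed to 4100 and 2945 CPM against 524.6, 57.4 and 47.2 CPM, with 0 of 6 called by edgeR. Prss28 and Prss29 made up most of that sum in the aged-SP libraries and in young-SP replicate 1. Cxcl15 went the other way, at 2.9 and 1.92 against 8.68, 20.1 and 8.13 CPM (-2.35, edgeR adjusted p = 0.116), and was called lower by DESeq2 (adjusted p = 0.000254), while Foxa2 stood at -0.02. The part of these markers in the levels of the 9 factors was not tested.

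Of the 5 estrogen response genes, summing to 9521 and 8727 CPM in the aged-SP libraries and to 7607, 427 and 1151 CPM in the young-SP libraries, 1 was higher at an unadjusted p under 0.05, and edgeR and DESeq2 called 0. Ltf, which leads that list, stood at 2705 and 4324 against 3627, 28.2 and 393.7 CPM. Lcn2 (1671 and 1084 against 1632, 2.3 and 4 CPM) and the epithelial adhesion gene Epcam (261.8 and 235.1 against 280.5, 76.5 and 86.9 CPM) were chosen after their values were seen. All 3 were high in both aged-SP libraries and in young-SP replicate 1 and low in young-SP replicates 2 and 4. Dlx5, Dlx6 and Emx2 had this split over a far narrower range, for Dlx6 with 12.1 CPM in aged-SP replicate 1 and 11.3 CPM in young-SP replicate 4. The first principal component of the 500 most variable genes also had it, at -43.7, -25.5 and -9.43 against 41.9 and 36.6. The share of all tested genes with this split was not counted, so it is not shown to be particular to these genes. Other members of these lists did not show the split: Krt19 stood at 113.4 and 163.1 against 246.1, 123.6 and 185.3 CPM, Cldn3 at 91.4 and 96 against 178.3, 187.3 and 207.3 CPM, and Sprr2f at 64.4 and 220.4 against 452.8, 33.7 and 92.4 CPM. The highest level was only 2.26-fold above the lowest for Dlx5, 1.71-fold for Dlx6 and 1.58-fold for Emx2.

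**Figure D5:**
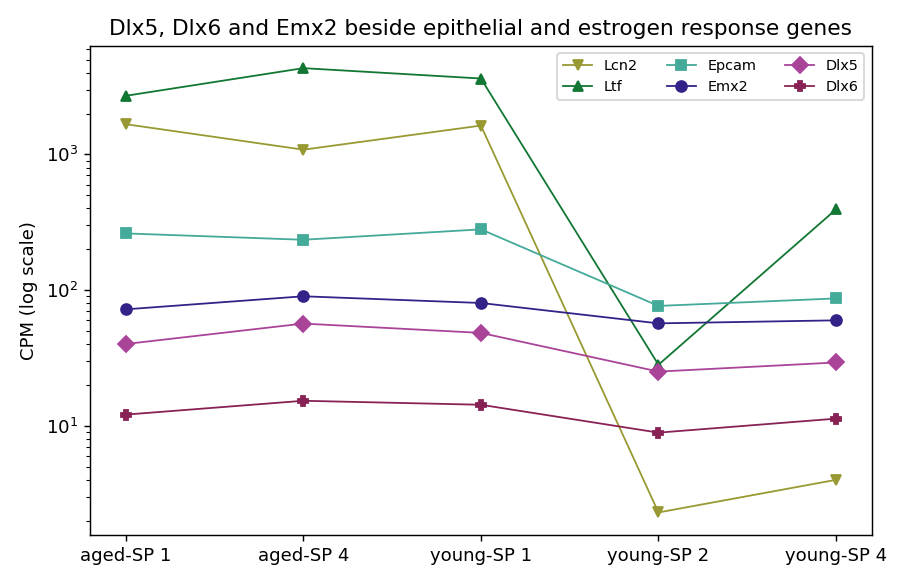
CPM (y axis, log scale) of Dlx5, Dlx6 and Emx2 beside the epithelial gene Epcam and the estrogen response genes Ltf and Lcn2 in the 5 libraries (x axis); lines join the values of a gene. All 6 genes lie lower in young-SP replicates 2 and 4 than in the other 3 libraries, Lcn2 at 2.3 and 4 against 1084 to 1671 CPM and Emx2 at 56.9 and 59.9 against 72.2 to 90.1 CPM.

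Set against the summed epithelial markers, the 9 factors kept their directions but not all their gaps. Per 1000 counts of epithelial markers, Msx1 came to 56 and 107 in the aged-SP group and to 97.2, 207.5 and 166.3 in the young-SP group, so that its groups overlapped. Dlx5 came to 31.5 and 43.1 against 28.7, 26 and 25.4, and no longer overlapped. Cebpb came to 14.8 and 9.03 against 5.33, 6 and 6.23, with no overlap. Klf4 and Foxo1, which had been apart by a narrow margin, overlapped on this scale. With these sums as library sizes, 0 of 9 were called (edgeR, 3.92% of all tested genes), 2 of 9 did not overlap (17.9%) and 2 had an unadjusted p under 0.05 (9.9%).

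Markers of stroma, muscle, vessels and leukocytes had counts in every library. The 6 stromal markers, led by Dcn, summed to 3396 and 4220 CPM against 3497, 4447 and 5029 CPM, with 3 of 6 lower at an unadjusted p under 0.05. Myometrial markers (5 genes) summed to between 8482 and 13503 CPM, with 0 of 5 at that level, and endothelial markers (4 genes, of which Cdh5 had the highest FPKM) to between 349.3 and 599.1 CPM, with 1 of 4 lower. Leukocyte markers (5 genes, of which Cd68 had the highest FPKM) summed to 287.4 and 379 CPM against 401.5, 227.6 and 309.9 CPM, with 0 of 5. Proliferation genes (5, led by Top2a) summed to 235.2 and 258.2 CPM against 668.7, 386.3 and 274.9 CPM, with 1 of 5 lower. The progesterone response list of 6 genes, led by Acod1, summed to 267 and 21.3 CPM against 204.1, 139.6 and 248.5 CPM. At an unadjusted p under 0.05, 4 of 6 were lower and 1 higher (DESeq2 called 4 lower). Acod1, at 140.7 and 1.72 against 110.9, 61.2 and 164.9 CPM, was not among them (edgeR unadjusted p = 0.655). The shares to set beside each of these lists are 9.36% lower and 9.62% higher of all tested genes, and 1.92% called lower by DESeq2. The higher gene of the progesterone list, Cyp26a1, stood at 103.7 CPM in aged-SP replicate 1 and at no more than 3.4 CPM in the other 4 libraries. That library was also the one in which Klf4, Klf5, Foxo1 and Cebpb were highest and Msx1 and Msx2 lowest, and the part of its hormone response genes in those levels was not tested.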

How the data were processed

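RNA of whole uteri was sequenced (NEBNext Ultra RNA kit, Illumina HiSeq), and 5 libraries, 2 aged-SP and 3 young-SP, were analysed. A further young-SP sample that the study excluded was not analysed here. The reads were filtered and aligned with HISAT2 2.1.0, and the submitters' processing notes also list Bowtie2 2.2.3 and HTSeq 0.6.0 with no role. The genome build and the strand setting of the counting are not given in the sources used here, and 26998 of 28666 gene positions are those of GENCODE M21 on GRCm38. The authors deposited raw read counts per gene and library. They also deposited FPKM, the counts over gene length and library total, which were used here for levels between genes only. The deposited table further holds a mean scaled signal, fold and log2 fold changes, and p-values of the authors' own DESeq2 comparison, none of which was used. All columns of single samples were used (0 left out).

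Counts were scaled by TMM (factors 0.99 to 1.02) and tested with glmQLFit and glmQLFTest in edgeR 4.0.16 (R 4.3.3) after filterByExpr, two-sided, with Benjamini-Hochberg adjustment over 17013 genes. DESeq2 1.42.0 and limma-voom (limma 3.58.1) were alternatives. The thresholds were those of the study. The biological coefficient of variation was 25.1%. Log2 CPM values carry a prior count of 2. Counting error limits genes with few counts, and the files hold no molecular identifiers. The fit was tested on simulated data (3 datasets, 17013 genes, 200 of them changed). False calls made up 8.24% of the list from edgeR, 7.7% from limma-voom and 21.3% from DESeq2. The changed genes found were 94.2%, 93.2% and 98.2%, in the same order. The simulated log2 fold changes were 2 or 3 in either direction, beyond that of any of the factors. How often changes of the size seen for the factors are found was therefore not measured. The 21.3% covers all calls by DESeq2. The share among genes called by DESeq2 alone, as Cebpb was, was not computed and can be higher.

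The 9 factors and the gene lists were chosen with earlier results of these data known. The rule for named genes took all 9 factors, paralogs and pathway genes with an unadjusted p under 0.05 and no overlap, the most abundant paralog of each family, the most abundant gene of each marker list and the gene nearest in profile to each factor. A few genes outside the rule are marked in the text or given as members of a counted set.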

Additional observations from a re-analysis of the deposited data

How the results depend on the processing

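Of the 9 factors, 8 kept the direction of their fold change under all 15 alternatives, and Msx2 reversed to 0.39 without aged-SP replicate 1 and to 0.09 without young-SP replicate 2 (range -0.78 to 0.39 with 1 library left out). Some of the 15 changed only the threshold or the variance estimate of the test and could not reverse a fold change. Cebpb was called by DESeq2's Wald test (log2 fold change 1.07), which made the count of called factors 1 in place of 0, and every other alternative gave 0, each library left out included. The number of all genes called, 25, became 632 with DESeq2, 203 with no filter on low counts and 667 with the summed epithelial markers as library size, which moved the median of all genes by -0.101, and 1 to 562 with 1 library left out (562 without young-SP replicate 1). Factors at an unadjusted p under 0.05, 3 of 9, became 2 with limma-voom, 2 with the epithelial scaling and 0 to 5 with 1 library left out, 0 without aged-SP replicate 1 and 5 without aged-SP replicate 4 (12.3% and 14.9% of all tested genes). Those without overlap, 4 of 9, became 2 with library size alone (38.3% of all tested genes), 2 with the epithelial scaling (17.9%) and 4 to 8 with 1 library left out, where the share of all tested genes also rose, to between 46.3% and 63.9%. Where a fit left 1 aged-SP library, that library was assumed to vary like the young-SP libraries. The causes were not tested.

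Replicate numbers 1 and 4 occur in both groups, but nothing in the labels ties them to a shared batch, and with 2 pairs they count as numbers only (correlation of deviations 0.152 and 0.136). With the replicate block, 2 genes and 0 factors were called, and 2 factors had an unadjusted p under 0.05. The share of all tested genes at that level is not given for this fit or for limma-voom. The counts of factors from these fits are therefore not read against a background.

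With 2 libraries against 3, the 95% intervals of the log2 fold changes were between 0.93 (Foxo1) and 1.91 (Msx2) wide. The unadjusted intervals of Msx1, Klf4 and Cebpb lay on a single side of no change, though these genes did not pass after adjustment in edgeR. Those of the other factors reached both sides, so a difference in either direction inside them is not excluded.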
